A study of Fukomys damarensis with 47 samples.

Results

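Cells grown from the long bones and from the lumbar vertebrae (LV) of the same nonbreeding Damaraland mole-rats were compared, library against library within each animal, after 24 hr with vehicle. The members were 20 RNA-Seq libraries of 47 in the series, 1 from each bone type of 10 females of 8 natal colonies. They were chosen by their labels: nonbreeder, vehicle, and both bone types present. An eleventh nonbreeder with vehicle, G1F022, had no LV library and was left out. Of the 10 animals, 6 were helpers kept in their natal colony and 4 were solitaires housed alone, and they were 1003 to 1232 days old. The vehicle cultures were the control side of an experiment with 10 nM estradiol.

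The labels call the cells bone marrow derived, and the study enriched them for mesenchymal stem and stromal cells (bMSCs), adherent cells of the marrow that can form bone, cartilage, fat and stroma. Such cultures are mixed, since marrow macrophages also attach to plastic. The long bone sample pooled the bones of the forelimb with the femur and tibia of the left leg, and the vertebral sample pooled LV1 to LV5. The vertebrae were incubated with a collagenase before the marrow was spun out and the long bones were not, so bone type and that step cannot be told apart. The cells spent 2 to 9 days in culture and the labels do not give the number for a library, so its part in the results was not tested. Developing limbs and trunk arise from different mesoderm and carry different codes of HOX genes, a class of transcription factors that set position along the body, and cells taken from adult bones are known to keep part of that code.

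Library totals were 6174122 to 12783119 counts in the long bones and 5672201 to 12114581 in the LV. They were higher in the long bones in 7 of 10 animals (exact sign-flip permutation test within animals, two-sided, p = 0.0801). The number of genes with at least 1 count was 14613 to 17179. Matrix transcripts were present in every library. COL1A1, a chain of type I collagen, lay between 84.1 and 1350 CPM (counts scaled to library size), and the matrix glycoprotein THBS1 between 3124 and 8139 CPM. Other genes listed for stromal cells and osteoblasts varied in level. COL5A2 lay between 460.7 and 1225 CPM and DDR2 between 90.3 and 737.7 CPM. The co-receptor ENG fell to 0.809 CPM in a long bone library and 0.531 CPM in an LV library. PHEX had medians of 5.32 CPM in the long bones and 7.73 CPM in the LV. Over the 11047 genes tested, a median of 60.8% of the sum of squares of log2 CPM lay between animals and 3.92% between bone types. Animals take up more degrees of freedom than bone types, so these shares cannot be compared as sizes of effect.

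One animal stood apart, and counts of calls are given with all 10 animals and then without it. When genes were called with 9 animals and their sign was read in the animal left out, between 77.7% and 91.9% of the called genes had the same sign in 9 of the 10 animals. In WAF011, a helper, the share was 29%. These shares rest on unlike sets of genes. The fit without WAF011 called 1536 genes, and the other fits, which held WAF011, called 258 (without WEF001) to 317 (without G4F020). Over all genes tested, 24.8% had the sign of the other animals in WAF011, against 52% to 70.8% in the others. The 23 genes whose CPM ranges did not overlap in the other 9 animals nevertheless had the labelled direction in WAF011 for 21 of 23. The estradiol cultures of WAF011 did not share the inversion: 91% of the same genes had the sign of the other 9 animals. The vehicle pair of WAF011 was therefore unlike the remaining pairs across most genes, and like them for the genes with the widest separation between bones.

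**Figure D1:**
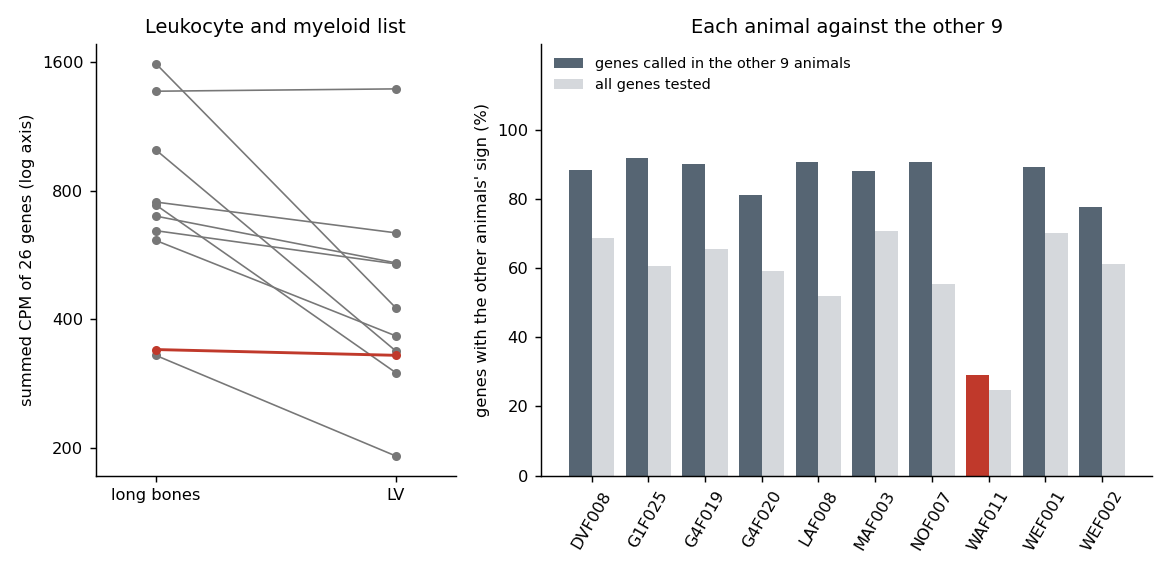
Left, summed CPM of the 26 tested genes of the leukocyte and myeloid list (log axis) in long bones and LV, with a line for each animal and WAF011 in red. Right, for each animal left out in turn, the percentage of genes with the sign of the other 9 animals, among the genes called in those 9 (dark or red bars) and among all genes tested (light bars). WAF011 is at 29% of 1536 called genes, and the other animals are at 77.7% to 91.9% of sets of 258 to 317 called genes.

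At a false discovery rate (FDR) of 10%, 394 of the 11047 genes differed between bones (3.57%, edgeR with animal as a block), 234 of them higher in long bones (2.12%) and 160 higher in LV (1.45%). Without WAF011 the fit called 1536 genes (13.9%), 962 higher in long bones (8.71%) and 574 higher in LV (5.2%), and all 394 were among them. Without WEF001 it called 258 genes. At an FDR of 20%, 674 genes were called. The typical change was modest: the median absolute log2 fold change of the 394 genes was 1.04, 208 exceeded 1 and 34 exceeded 2, of which 23 were higher in LV. The called genes had the same sign in all 10 animals in 160 cases and in at least 9 animals in 349. For the called genes, a median of 31.6% of the sum of squares lay between bone types, a share raised by their selection on this difference.

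**Figure D2:**
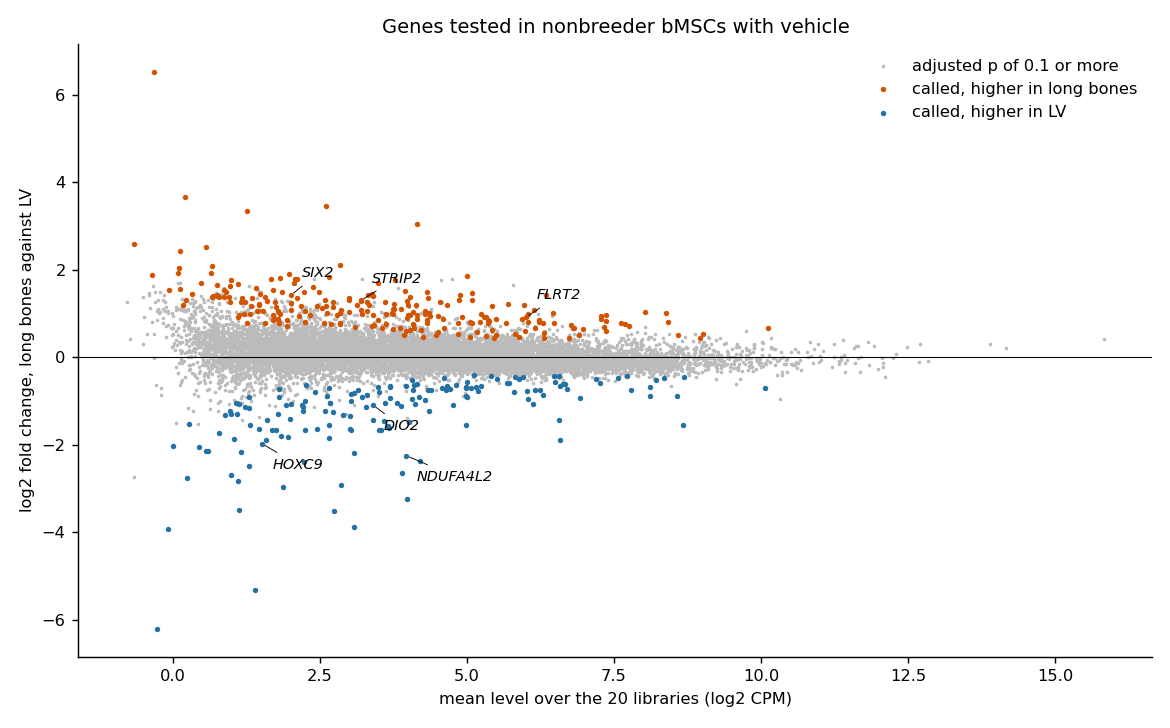
Log2 fold change of long bones against LV for the 11047 genes tested, against their mean level over the 20 libraries in log2 CPM. Orange points are the 234 genes called higher in long bones, blue points the 160 called higher in LV and grey points the rest, and 6 called genes are named.

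The genes with the widest separation had no symbol in the table of names used here. For 20 genes (0.181% of those tested) the CPM ranges of long bones and LV did not overlap, 10 higher in each bone type. None of the 20 had a symbol, but only 1116 of the 11047 tested genes had one in that table. A missing symbol here therefore does not describe the gene. ENSFDAG00000007691 had 29.1 to 69.1 CPM in the long bones (median 52.1) and 3.01 to 10.0484 CPM in the LV (median 6.35). Its long bone level exceeded its LV level in all 10 animals, with a log2 fold change of 3.04 (SE 0.185, adjusted p = 3.54e-07 by edgeR).

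ENSFDAG00000013279 was the mirror image, with 0.869 to 5.01 CPM in the long bones (median 2.18) and 10.1 to 60.4 CPM in the LV (median 32.9). Its log2 fold change was -3.87 (SE 0.196, adjusted p = 6.17e-08 by edgeR). ENSFDAG00000015602 was close to silent in the long bones, with 33 counts over the 10 libraries and none in 1 of them, against 1063 counts in the LV. Relative to library totals it was 37.6 times higher in LV (95% interval 26.6 to 54.9, exact conditional binomial, counting error only). ENSFDAG00000012216 showed the reverse, with 226 counts in the long bones, where no library was at 0, and 1 count in the LV, in WAF011. Its ratio of 193.7 had a counting interval of 34.4 to 7682. These 4 genes kept their sign in all 10 animals, all 3 queens and all 3 estradiol cultures with both bones, the pair of WAF011 included.

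Of 15 tested genes on a list of developmental transcription factors, which mark position and lineage, 1 rose in long bones (SIX2) and 2 were higher in LV (HOXC9 and ZEB1), against 2.12% and 1.45% of all genes. The same 3 were called without WAF011. Their median log2 fold change was 0.13, against 0.05 over all genes tested.

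HOXC9, a HOX gene of the trunk, ran from 0.196 to 3.61 CPM in the long bones (median 1.32) and from 1.66 to 8.85 CPM in the LV (median 5.63). The LV library was the higher of the pair in all 10 animals, although the ranges of the groups overlapped. The log2 fold change was -1.97 (SE 0.286, adjusted p = 0.00191 by edgeR), and it was -1.97 without WAF011. Its lowest level, in the long bones of MAF003, rested on 2 counts.

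SIX2, a homeobox factor of limb and kidney mesenchyme, ran the other way. It had 2.36 to 11.4 CPM in the long bones (median 6.92) and 0.885 to 5.9 CPM in the LV (median 2.72), and was higher in the long bones in 9 animals, all but WAF011. The log2 fold change was 1.42 (SE 0.275, adjusted p = 0.0131 by edgeR) and rose to 1.64 without WAF011 (adjusted p = 0.000857).

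ZEB1, a zinc finger repressor of epithelial genes, was 0.59 lower on the log2 scale in the long bones (adjusted p = 0.0678), with medians of 46.4 CPM in the long bones and 63.4 CPM in the LV. It was called in 4 of the 10 fits that left out 1 animal. Its paralogue ZEB2 went to 0.27 and was not called (adjusted p = 0.331).

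**Figure D3:**
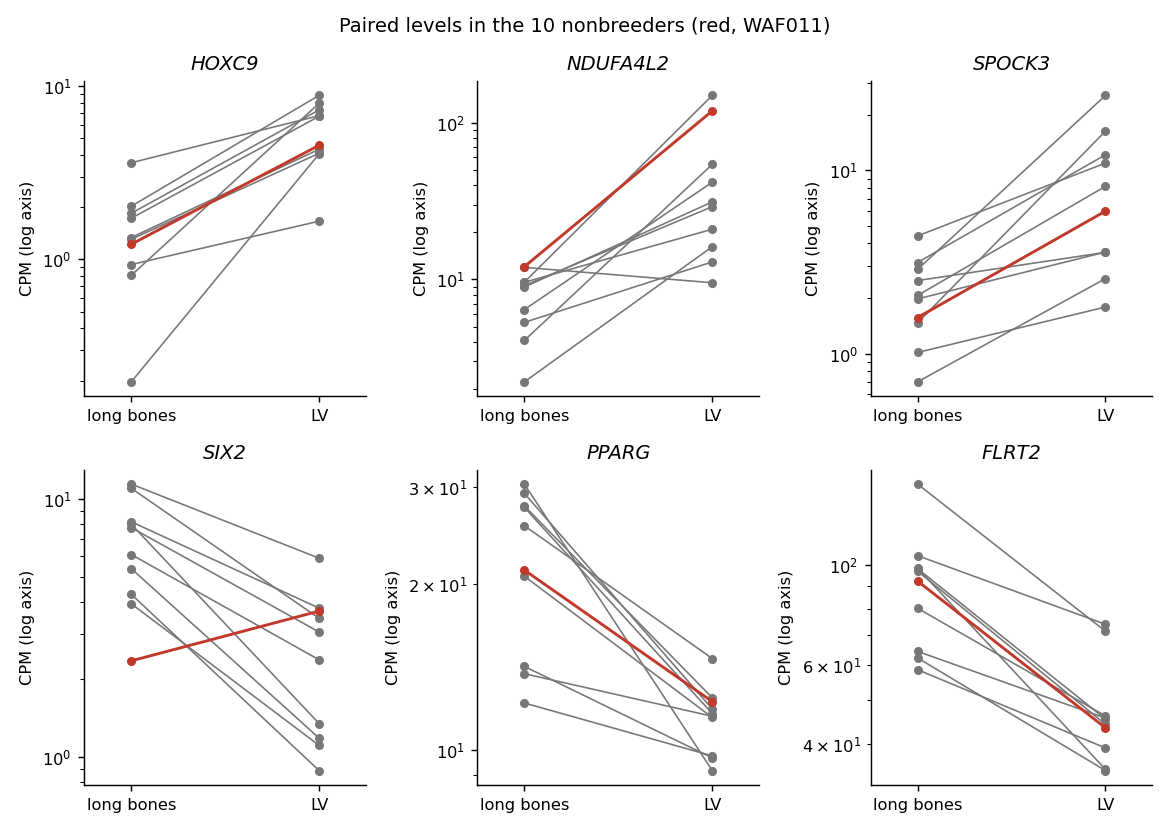
CPM (log axis) of 6 called genes in the long bones and the LV of the 10 nonbreeders, with a line for each animal and WAF011 in red. HOXC9, NDUFA4L2 and SPOCK3 were lower in the long bones in at least 9 animals, and SIX2, PPARG and FLRT2 were higher in at least 9.

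Of 10 tested adipocyte and lipid genes, 2 rose in long bones, with 2.12% of all genes called in that direction, and the same 2 were called without WAF011. PPARG, the nuclear receptor that drives adipocyte differentiation, had 12.2 to 30.4 CPM in the long bones (median 23.4) and 9.16 to 14.6 CPM in the LV (median 11.6). All 10 animals had the higher value in the long bones, and the log2 fold change was 0.91 (SE 0.161, adjusted p = 0.00768 by edgeR). AOC3, an amine oxidase abundant in adipocytes and vascular smooth muscle, rose by 0.88 (adjusted p = 0.0961) and was higher in 9 animals. AOC3 was called in 1 of the 10 fits that left out 1 animal, with an adjusted p of up to 0.232.

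The remaining 8 were not called. All 10 had a positive log2 fold change, with a median of 0.32. The lipid droplet protein PLIN2 stood at 0.32 (adjusted p = 0.511) and CPT1A, which carries fatty acids into mitochondria, at 0.04 (adjusted p = 0.886). SC5D, a late enzyme of cholesterol synthesis that was not on the list, was 0.77 lower on the log2 scale in the long bones (adjusted p = 0.0191). Its levels were 37.8 to 81.4 CPM in the long bones and 56.2 to 197.2 CPM in the LV.

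Of 24 tested genes of collagen and extracellular matrix, 1 rose in long bones and 1 was higher in LV, against 2.12% and 1.45% of all genes. A positive log2 fold change was found for 19, against 6278 of the 11047 genes tested, and the list median was 0.30. Without WAF011, 7 rose in long bones, 1 was higher in LV and 20 were positive, where 8.71% and 5.2% of all genes were called in these directions. FLRT2, a membrane protein that binds latrophilin and UNC5 receptors, had the smallest p-value among the genes with symbols. It had 58.5 to 151.7 CPM in the long bones (median 94.6) and 34.9 to 73.9 CPM in the LV (median 44.8), and was higher in the long bones in all 10 animals. The log2 fold change was 0.91 (SE 0.122, adjusted p = 0.00111 by edgeR).

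SPOCK3, a heparan sulphate proteoglycan, was lower in the long bones, with 0.7 to 4.39 CPM (median 2.03) against 1.79 to 25.7 CPM (median 7.09) in the LV. All 10 animals had the higher level in LV, and the log2 fold change was -1.82 (SE 0.291, adjusted p = 0.0036). COL1A1 had 189.3 to 1350 CPM in the long bones and 84.1 to 620.8 CPM in the LV. It was higher in the long bones in 9 animals and was not called (log2 fold change 0.54, SE 0.209, adjusted p = 0.261), whereas without WAF011 it passed at 0.70 (adjusted p = 0.0339). ANOS1, which encodes the matrix protein anosmin, was not on the list and rose by 1.08 (adjusted p = 0.0065) in 9 of 10 animals.

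With all 10 animals, the listed genes of bone formation and resorption were not called in either direction. These lists are short and hold only genes with a symbol, which 1116 of the 11047 tested genes had. None of 9 tested osteoblast and mineral genes passed, with a median log2 fold change of -0.15. The smallest adjusted p was 0.108, for the LIM protein FHL2, and PHEX, an endopeptidase of phosphate and mineral control, stood at -0.49 (adjusted p = 0.277). None of 4 osteoclast genes passed. CTSK, the protease with which osteoclasts degrade collagen, had medians of 251.5 CPM in the long bones and 273.7 CPM in the LV and a log2 fold change of -0.13 (SE 0.212, adjusted p = 0.789). It turned positive in the solitaires (0.39) and in the 7 older animals (0.17). Without WAF011, COL1A1 on the osteoblast list rose in long bones, FHL2 was higher in LV, and on the osteoclast list ATP6V1D, a subunit of the vacuolar proton pump, was higher in LV (-0.36, adjusted p = 0.0625).

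Signalling genes differed in single members. Of 12 tested genes of TGF-beta and BMP signalling, 1 rose: the activin receptor ACVR2A, with 19.3 to 43.2 CPM in the long bones and 16.5 to 38.4 CPM in the LV (log2 fold change 0.55, adjusted p = 0.0986). It was called in 2 of the 10 fits that left out 1 animal. Over all genes, 2.12% rose in long bones with all 10 animals. Without WAF011, ACVR2A, TGFB3 and LTBP1 rose, where 8.71% of all genes did, and no member was higher in LV. The co-receptor ENG went from a median of 13.9 CPM in the LV to 5.41 CPM in the long bones. Its log2 fold change of -0.98 (SE 0.456, adjusted p = 0.387) was not called, and 3 animals had the opposite sign. None of 16 genes of Wnt, FGF, IGF and guidance signalling passed, with the smallest adjusted p of 0.363 for FGFR1.

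Among genes of contraction and mural cells, GUCY1A1, a subunit of the nitric oxide receptor guanylate cyclase, rose by 1.03 (adjusted p = 0.00808) in all 10 animals, with medians of 9.52 CPM in the long bones and 4.8 CPM in the LV. FILIP1L, which binds filamin, was lower by 0.43 on the log2 scale (adjusted p = 0.0548) in all 10. The other 13 tested members were not called. Over all genes, 2.12% were called higher in long bones and 1.45% higher in LV. PDE1A, a phosphodiesterase that degrades cyclic nucleotides and was not on the list, was 0.64 lower on the log2 scale in the long bones (adjusted p = 0.0271). Without WAF011, 5 members of the list rose and 3 were higher in LV, where 8.71% and 5.2% of all genes did. None of 5 striated muscle genes and none of 7 endothelial genes passed, and without WAF011 the muscle gene ASB5 was higher in LV (-0.64, adjusted p = 0.0795).

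NDUFA4L2, a mitochondrial protein induced by hypoxia, had the greatest fold change of the called genes with a symbol. It had 2.22 to 12.0494 CPM in the long bones (median 9.03) and 9.51 to 149.2 CPM in the LV (median 30.2). The LV library was higher in 9 animals, and WEF002 had 11.9 CPM in the long bones and 9.51 CPM in the LV. The log2 fold change was -2.24 (SE 0.372, adjusted p = 0.00512 by edgeR). With all 10 animals it was the 1 call among 9 tested genes of hypoxia and glycolysis, where 1.45% of all genes were called higher in LV. The list median was 0.05. Without WAF011 the glycogen phosphorylase PYGL also rose in long bones and the median was 0.18. ERO1A, another hypoxia-induced gene, stood at -0.06 (adjusted p = 0.892).

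TNFSF4, the ligand of the T cell receptor OX40, had medians of 1.53 CPM in the long bones and 5.19 CPM in the LV, and the LV level was higher in all 10 animals (log2 fold change -1.63, adjusted p = 0.00374). DIO2, the deiodinase that activates thyroid hormone, had 3.79 to 11.6 CPM in the long bones and 7.08 to 31.9 CPM in the LV (log2 fold change -1.09, adjusted p = 0.0124). WEF001 alone had the opposite sign for DIO2. Smaller changes in the same direction were seen for MBL2, a lectin of the complement system (-0.63), PLA2G4A, the phospholipase that releases arachidonic acid (-0.46), and COBLL1 (-0.51).

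Leukocyte genes leaned to the long bones as a list, and its members differed in size. Of 26 tested genes of a leukocyte and myeloid list, 7 rose in long bones, where 2.12% of all genes did, and none was higher in LV. Of the 26, 25 had a positive log2 fold change, and the median was 0.71. The called members included SLAMF7, a receptor of lymphoid and myeloid cells (1.09), COTL1, an actin-binding protein (0.99), DAPP1, an adaptor of B cell receptor signalling (1.12), and FLI1, an ETS factor of blood and endothelium (0.93). LAPTM5, a lysosomal protein of blood cells, had 25.9 to 392.6 CPM in the long bones and 15.96 to 420.7 CPM in the LV and passed narrowly (log2 fold change 1.02, SE 0.291, adjusted p = 0.0968). CORO1A, an actin regulator of leukocytes, was not called (0.67, adjusted p = 0.175). Other members that were not called ran from C3AR1 at -0.17, CLEC4E and TLR8 at 0.06 and CTSS at 0.12 to PTAFR at 1.45. LAPTM5 was called in 2 of the 10 fits that left out 1 animal. Without WAF011, 14 of the 26 rose, CORO1A and LAPTM5 among them, where 8.71% of all genes did, and none was higher in LV. C3AR1, CLEC4E, TLR8 and CTSS were again not called.

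The summed level of the 26 genes was 329.1 to 1589 CPM in the long bones (median 719.6) and 191.3 to 1387 CPM in the LV (median 395.8). It was higher in the long bones in 9 of 10 animals (exact sign-flip permutation test, two-sided, p = 0.00586, adjusted p = 0.0293 over 10 library measures, where the smallest p possible is 0.00195). The list was drawn up with earlier results of these data known. The adjustment does not cover the choice among the lists, so this p-value is descriptive. The largest gap was in G1F025, with 1589 CPM against 425.9 CPM, and NOF007, at 1369 CPM and 1387 CPM, had none. In bulk cultures more cells of a type and more RNA per cell cannot be told apart.

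The bone difference of other genes was read again with the summed leukocyte level as a covariate beside animal, an alternative chosen after seeing the data. It left 38 genes called, all of them among the 394, and 393 of the 394 kept their sign. FLRT2 (1.10), SPOCK3 (-2.13) and ANOS1 (1.44) were still called. HOXC9 kept its size at -1.97 and lost its call (adjusted p = 0.124), as did PPARG at 0.89 (adjusted p = 0.286) and SIX2 at 1.07 (adjusted p = 0.723). STRIP2 went from 1.30 to 0.28 and AOC3 from 0.88 to 0.37, with adjusted p of 1.00 for both. LAPTM5 stood at -0.042 under this fit and none of the 26 leukocyte genes was called. The covariate was the sum of these 26 genes, so their loss of calls was built into the fit and is not a result. The covariate was itself higher in the long bones in 9 of 10 animals and so shared variation with bone type. A lost call therefore need not mean a smaller difference, as HOXC9 shows. The part of leukocyte content in the calls that were lost was not tested further.

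Of 17 tested genes of interferon and inflammation, SOCS2, a brake on growth hormone and cytokine signalling (0.76, adjusted p = 0.0304), and IL1R1, the receptor of interleukin 1 (0.67, adjusted p = 0.0465), rose in long bones, and TNFSF4 was higher in LV. Over all genes, 2.12% were called higher in long bones and 1.45% higher in LV. The summed CPM of the 17 was higher in the long bones in 10 of 10 animals, with medians of 389.9 CPM and 344.1 CPM in the LV. A positive log2 fold change was found for 12 of the 17, against 6278 of 11047 genes tested. Without WAF011, 7 rose in long bones and 1 was higher in LV, where 8.71% and 5.2% of all genes did. IL1R1, the most abundant of the 17, had 65.7 to 135.9 CPM in the long bones (median 91.4) and 23.6 to 100.5 CPM in the LV (median 53.9). Outside the lists, KRT18, an intermediate filament keratin, rose by 0.84 (adjusted p = 0.0132) and STRIP2, a protein of the striatin complex, by 1.30 (adjusted p = 0.0418).

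With all 10 animals, the listed genes of proliferation and protein synthesis gave no calls. None of 22 tested cell cycle genes passed, with a median log2 fold change of -0.01, and none of 9 cytosolic ribosomal protein genes, with a median of -0.01. None of 10 genes of glycosaminoglycan synthesis was called, with a smallest adjusted p of 0.456 for EXTL2. Without WAF011, FAM83D of the cell cycle list rose in long bones and EXTL2 was higher in LV (-0.40, adjusted p = 0.0921), and no ribosomal protein gene was called.

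**Figure D4:**
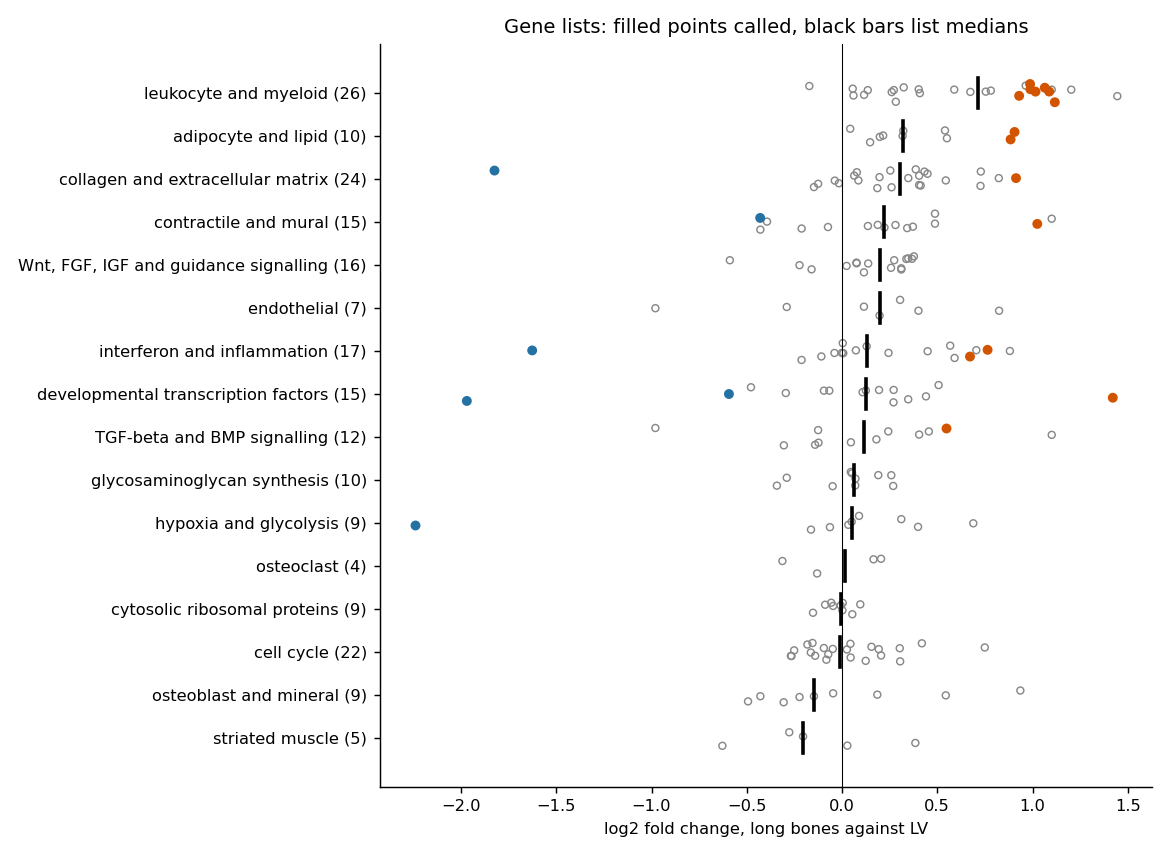
Log2 fold change of long bones against LV for each tested gene of 16 lists, with the number of genes tested in parentheses. Filled points are genes called at an FDR of 10%, orange higher in long bones and blue higher in LV, open points are the rest, and black bars are list medians. The leukocyte and myeloid list has the highest median, 0.71, and the striated muscle list the lowest, -0.20.

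The animals fell into 2 age classes. DVF008, LAF008 and WAF011 were 1003 to 1006 days old, came from 3 colonies with no animal in the older class, and lay at -23.8 to -56.9 on the second principal component (20.4% of the variance), below every other library. Fitted alone, these 3 animals gave no calls by edgeR at an FDR of 10%, with 332 genes at an unadjusted p under 0.05, and no other tool was run on them. The 7 older animals gave 564 calls, 298 of them among the 394. The young fit held the inverted pair of WAF011 and fewer animals, and the older fit did not hold that pair. These counts therefore cannot be read as a difference by age. HOXC9 stood at -1.95 in the young class and at -1.97 in the older animals, and PPARG at 1.11 and 0.81. NDUFA4L2 stood at -3.67 in the young class and at -1.58 in the older animals, a difference that was not tested. The classes also differed in natal colony, which the paper ties to littermate set and date of sacrifice. It also formed some breeding groups later than others, and the labels used here do not give the period. Age therefore cannot be told apart from these here. On the same component the long bone library lay above the LV library in 9 of 10 animals (exact permutation test within animals, p = 0.00391, adjusted p = 0.0293).

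Whether the bone difference depends on social status was tested within the same libraries. No gene differed in its bone difference between the 4 solitaires and the 6 helpers at an FDR of 10%. The count was 0 of 11047 by edgeR and 0 by DESeq2. By edgeR, 206 genes had an unadjusted p under 0.05, where 552 are expected by chance. With fewer than expected, the 0 calls do not show that the bone difference is the same in both groups. Fitted apart, the helpers gave 67 calls and the solitaires 67. HOXC9 differed by -1.09 on the log2 scale between solitaires and helpers (SE 0.536) and NDUFA4L2 by 1.36 (SE 0.647), with adjusted p of 1.00 for both. All 3 animals of the young class were helpers and all 4 solitaires were in the older class, so social status cannot be told apart from age class in part of this contrast.

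The called genes were then read in libraries that the fit had not used. The 3 queens came from the same colonies (DV, LA and WA) and age class as the 3 young nonbreeders. In 3 queens with both bones, 291 of the 394 genes (73.9%) had the nonbreeders' sign in all 3 animals, against 18.2% of all genes tested. In the estradiol cultures of 3 of the same nonbreeders, 280 (71.1%) had that sign in all 3, against 24.5% of all genes. The estradiol cultures came from animals that were also in the vehicle fit. HOXC9 stood at -2.18, -2.01 and -2.92 in the queens, NDUFA4L2 at -4.10, -3.95 and -3.58, and PPARG at 1.76, 1.55 and 0.82. SIX2 stood at 0.27, 1.50 and 0.73, and 2 of these values were below those of all nonbreeders except WAF011 (0.93 to 2.38). All 4 genes had the nonbreeders' sign in the 3 queens.

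No gene differed in its bone difference between the 3 queens and the 10 nonbreeders by edgeR, and 2 did by DESeq2. By edgeR, 296 genes had an unadjusted p under 0.05, where 552 are expected by chance. NDUFA4L2 differed by -1.68 (SE 0.684, unadjusted p = 0.0259, adjusted p = 1 by edgeR). The young nonbreeders of the queens' colonies stood at -3.66, -3.93 and -3.28, so part of this contrast cannot be told apart from age class and colony. None differed by edgeR between estradiol and vehicle in the 3 nonbreeders with all 4 cultures, and 1 did by DESeq2. By edgeR, 126 genes had an unadjusted p under 0.05, where 552 are expected by chance. Counts below the expected number do not show that the bone difference is the same. In WAF011, 1 of these 3 animals, SIX2 was -0.59 with vehicle and 1.93 with estradiol.

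**Figure D5:**
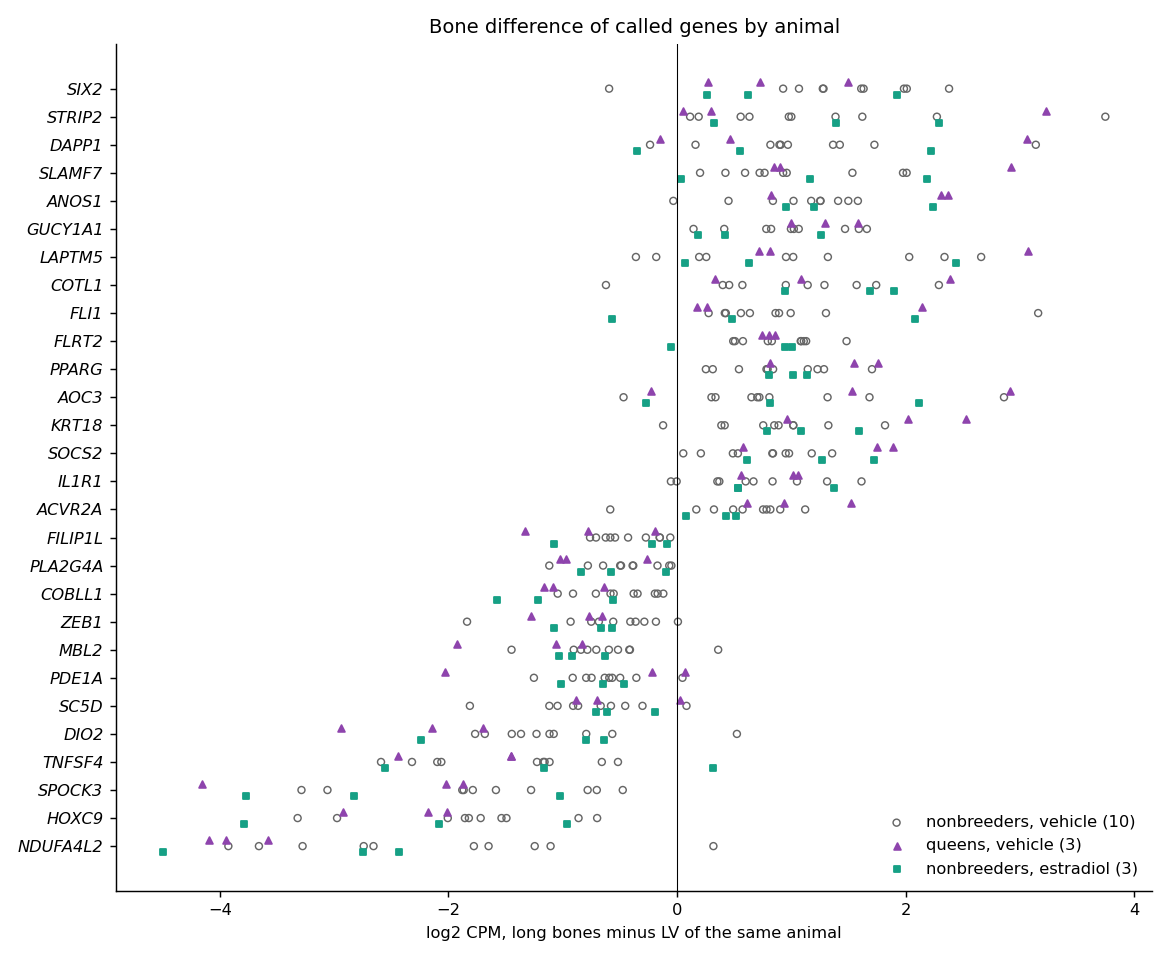
Log2 CPM of the long bones minus that of the LV of the same animal, for the 28 named genes with a symbol that were called. Open circles are the 10 nonbreeders with vehicle, triangles the 3 queens with vehicle and squares the 3 nonbreeders with estradiol. For NDUFA4L2 the queens sit at -3.58 to -4.10.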

How the data were processed

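RNA-Seq counts per gene were analysed for 20 cultures. The authors trimmed reads with cutadapt 2.3, aligned them to DMR_v1.0 with 2-pass STAR, kept uniquely mapped reads and deposited HTSeq counts on Ensembl genes; the strand setting was not given in the sources used here, so overlapping, antisense and near-identical genes are uncertain. Members, gene lists and named genes were chosen with earlier results of these data known. Symbols came from a supplementary table of the study (1138 usable, 1116 of them tested, 35 of them called), and lists hold only genes named there.

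Testing took genes that reached 2 CPM in 25% of the 47 libraries or more and used edgeR 4.0.16 (quasi-likelihood, TMM, animal as block, two-sided) in R 4.3.3 with Benjamini-Hochberg adjustment at FDR 10% and 20%. A log2 fold change is edgeR's estimate, and its SE was derived from the quasi-likelihood F. CPM and log2 CPM (prior count 2) use TMM library sizes. Both libraries of a pair came from 1 animal. After removing bone means, their correlation was -0.02 (WAF011) to 0.78, over 0.1 in 8 of 10. Replicates were separate animals, and the least different of 90 library pairs of a bone type had chi-squared per degree of freedom of 24.6. DESeq2 1.42.0 and limma 3.58.1 were alternatives, as were other scalings, filters, samples and each animal left out. Plots used matplotlib. The fit was tested on simulated data and recovered 72.5% of 200 genes altered by 1 on the log2 scale, with 7.05% of calls on unaltered genes, and 100% of 200 altered by 2, with 13.4% (11047 genes, long bones against LV). In that simulation each altered gene had the same bone effect in every animal. Its rates therefore do not cover a pair inverted over most genes, as in WAF011. Named genes were the 12 symbols with the smallest p in each direction, at most 2 identifiers in each direction, called and most abundant list members, and COL1A1, CTSK, ENG, LAPTM5, CORO1A and HOXC9. FHL2, PHEX, PLIN2, ZEB2, FGFR1, PYGL and FAM83D were added after their values were seen.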

Additional observations from a re-analysis of the deposited data

Results flagged for a closer look

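Values were examined in each bone type, and for each animal's difference. A value was singled out where its gap to the nearest of the 10 exceeded Dixon's 95% limit. CPM of single genes was on a log2 scale, and library measures, the summed leukocyte level among them, were not. Of 116 groups examined, 11 had such a value; chance alone gives about 1 in 20.

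WEF002 supplied 4 of them. Its log2 difference for ENSFDAG00000015602 was -3.14, where the others lay between -5.23 and -4.31. ZEB1 had 15.5 CPM in its long bones, where the others had 31.6 to 66.1 CPM, and a log2 difference of -1.84, against -0.93 to 0.01. ACVR2A had 19.3 CPM in its long bones, against 32.7 to 43.2 CPM.

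Pairs of G1F025 and WAF011 supplied 2 each. In G1F025, ANOS1 had 21.0246 CPM in the LV, against 2.92 to 7.01 CPM in the others, and the log2 difference of FLI1 was 3.16, against 0.28 to 1.30. In WAF011, the log2 difference of SIX2 was -0.59, against 0.93 to 2.38, and ENSFDAG00000012216 had 0.0800 CPM in the LV, where the other 9 libraries were at 0, so that any single count there would have been singled out.

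The last 3 came from 3 animals. HOXC9 had 1.66 CPM in the LV of G4F019, against 4.06 to 8.85 CPM. The log2 difference of DIO2 was 0.52 in WEF001, against -1.77 to -0.57. The summed level of the leukocyte and myeloid list, read without a log scale, was 1387 CPM in the LV of NOF007, against 191.3 to 637.7 CPM.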

How the results depend on the processing

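With all 10 animals, 394 genes were called at an FDR of 10% (234 higher in long bones, 160 higher in LV) and 674 at an FDR of 20%. Without the animal block, which discards the pairing, 122 were called (41 and 81; 160 at an FDR of 20%), 119 of them among the 394. Without a filter on low counts, 891 of 23384 genes were called (587 and 304; 1236 at 20%), and DESeq2's Wald test called 727 (433 and 294). With sisters' counts added within a colony, 238 were called, 118 of them higher in long bones, and limma on all 47 libraries put 146 of 335 higher in long bones. Helpers alone gave 67 (24 and 43; 126 at 20%) and solitaires alone 67 (32 and 35; 192 at 20%), with fewer samples. Of settings chosen after seeing the data, the leukocyte covariate left 38 (17 and 21; 77 at 20%), dropping WAF011 and WEF002 gave 1318 (613 and 705; 3340 at 20%), the 3 youngest animals 0 (0 and 0; 0 at 20%), and the 7 older animals 373 higher in long bones (1814 in all at 20%). Leaving out 1 animal at a time gave 258 (without WEF001) to 1536 (without WAF011) calls, 136 to 962 higher in long bones, 120 to 574 higher in LV, and 451 to 3395 at an FDR of 20%. The cause was not tested. Other scalings and filters stayed within 1.5 times the count.

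Signs reversed under the covariate for LAPTM5 (-0.042) and CORO1A (-0.075), which are both part of the sum used as covariate. They also reversed for CTSK in solitaires (0.39) and older animals (0.17). For the 36 genes followed singly, 470 values under the alternatives kept sign and call, 164 lost the call and 10 gained it. Genes whose bone difference differed between solitaires and helpers numbered 0 with and without the block, and 25 without a filter. Between queens and nonbreeders there were 11 without a filter, 2 by DESeq2 (ENSFDAG00000017006 and ENSFDAG00000018853) and 0 to 1 with an animal left out. Between estradiol and vehicle there was 1 by DESeq2, ENSFDAG00000018906. Levels of a few CPM, as for HOXC9 and SPOCK3, rest on few counts.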

Other observations

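The inverted vehicle pair of WAF011 had its own profile over the gene lists. All 9 cytosolic ribosomal protein genes and 19 of 22 cell cycle genes were higher in its long bones (median log2 difference 0.52 and 0.45), where the fit to the other 9 animals gave 2 of 9 and 10 of 22 (medians -0.07 and -0.09). The collagen and extracellular matrix list had a median of -0.45 in WAF011 and 0.36 in the other animals, and the leukocyte and myeloid list -0.47 and 0.88. WAF011 was not singular in the size of its differences: 21.2% of genes differed by more than 1 on the log2 scale between its libraries, against 31.6% in WEF002, 27.5% in DVF008 and 4.15% in G4F020.

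Without WAF011, calls over all genes rose from 3.57% to 13.9%, 8.71% being higher in long bones and 5.2% higher in LV, and the lists below are read against those shares. Of 24 matrix genes, 7 were higher in the long bones, among them COL1A1 (0.70) and LTBP1, which anchors latent TGF-beta in the matrix (0.47). Of 17 genes of interferon and inflammation, 7 were higher in the long bones and 1 was higher in LV. Of 15 contractile and mural genes, 5 were higher in the long bones and 3 in LV, and of 12 genes of TGF-beta and BMP signalling 3 were higher in the long bones, among them the ligand TGFB3 (0.59, adjusted p = 0.1 by edgeR). All 10 adipocyte and lipid genes again had a positive log2 fold change (median 0.40). WAF011 was set aside after its values were seen.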
